A study of Mus musculus with 10 samples.

Results

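The genes described here are 32 mouse genes of the endoplasmic reticulum (ER) stress response and of its ATF4 arm, picked by symbol from a list of pathway genes. The rule uses no measured value, but the list was drawn up with earlier results of these data known. They fall into 11 chaperone and folding genes, 7 genes of ER-associated degradation (ERAD), 4 genes of stress sensors and their transcription factors, and 10 genes of the ATF4 arm. The list matched 33 of the 55385 entries of the count table, because Ddit3 has a second, nested entry with 0 counts in every library, which was not used. All 32 genes passed the filter on low counts, among 15064 genes tested. RNA sequencing covered 10 libraries of a mouse ovarian tumour line that carries mutations in Arid1a and Pik3ca, spelled APV245 in titles and APC245 in the series design. Of these, 5 were labelled IL6 shRNA1, with the genotype label IL6 knockdown, and 5 were labelled control shRNA, a non-mammalian hairpin in the pLKO.1-puro vector. All carry the label no treatment and the same batch. The labels describe cells kept in DMEM with serum, whereas the design text describes tumours grown under the skin, and neither says which libraries share an animal, a culture or a clone, so p-values measure only the spread between these libraries.

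Il6, the gene named as the target, was first checked in every library. It was measured at 1.07, 1.83, 2.18, 1.80 and 1.75 CPM (counts scaled to a common library size) in libraries 1 to 5 labelled IL6 shRNA1, and at 1.61, 0.438, 2.06, 1.34 and 0.83 CPM in control libraries 1 to 5, from 9 to 48 counts each. The log2 fold change was 0.44 ± 0.36 (SE, adjusted p = 0.44), with a 95% interval of -0.36 to 1.24. Over the omissions of single libraries it ran from 0.23 to 0.70, and with the leukocyte markers as a covariate it was -0.80 (adjusted p = 0.50). Il6 was not called in either direction, and groups are named by label throughout. Totals ran from 17905397 to 19934278 counts in the libraries labelled IL6 shRNA1 and from 18224751 to 22682346 in control. Markers of other cell types were counted in all libraries. The 10 leukocyte markers summed to between 2707 and 5505 CPM under IL6 shRNA1, against 945 to 2792 CPM in control, with 7 of the 9 tested called higher. The 4 skeletal muscle markers summed to between 27.9 and 8072 CPM, against 11.9 to 869 CPM in control, with 0 of 4 called. The 6 epithelial and tumour cell markers were at 209.8 to 252 CPM against 121 to 304 CPM, with 0 of 6 called. Endothelial markers (0 of 5 called) and fat markers (0 of 1 tested) were not called, and 1 of 5 fibroblast and pericyte markers was lower. In such bulk samples fewer cells of a type and less RNA per cell cannot be told apart.

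The ER folds secreted and membrane proteins, and when unfolded proteins build up 3 membrane sensors answer. IRE1 (gene Ern1) splices the Xbp1 mRNA, ATF6 is cut to release a transcription factor, and PERK (gene Eif2ak3) phosphorylates eIF2alpha, which slows translation in general while that of ATF4 goes up. XBP1 and ATF6 are known to switch on chaperone and ERAD genes, and ATF4 to switch on genes of amino acid supply, redox control and, through CHOP (gene Ddit3), cell death. Gene counts do not record Xbp1 splicing, ATF6 cleavage or PERK phosphorylation.

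Some promoters of the pathway carry short elements known to bind ATF6 and XBP1, or ATF4, and matches to them are shown because they tell which members hold which kind. RefSeq windows (GRCm38.p6) of 250 bases before to 50 bases after the start site were at hand for 28 of the 32 members and not for Hyou1, Manf, Derl1 and Atf6. Both strands were searched for the ER stress response element ERSE (CCAAT and CCACG with 9 bases of any kind between them), for ERSE-II (ATTGG and CCACG with 1 base of any kind between them), for the unfolded protein response element UPRE (TGACGTGG) and for the C/EBP-ATF response element CARE (TGATGNAA). ERSE was found in 7 of the 28 members and in 37 of 27025 genes with a window (0.137%). ERSE-II was found in 2 members and in 12 of all genes (0.0444%), UPRE in 0 members and in 193 genes (0.714%), and CARE in 5 members and in 1219 genes (4.51%). No match of one motif overlapped a match of another in these members. A match is a description of letters and not a proven site. The ERSE matches, written in the orientation of the motif with its fixed letters in capitals and with positions counted from the start site as 0, were as follows, the genes being chaperone and folding genes except Derl3 and Syvn1 of ERAD.
Hspa5 (-65 to -47): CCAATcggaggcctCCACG
Derl3 (-156 to -138): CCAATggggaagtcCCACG
Hsp90b1 (-212 to -194): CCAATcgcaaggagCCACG
Hsp90b1 (-107 to -89): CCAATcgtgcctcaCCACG
Pdia6 (-98 to -80): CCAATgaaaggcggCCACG
Dnajc3 (-105 to -87): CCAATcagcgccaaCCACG
Creld2 (-126 to -108): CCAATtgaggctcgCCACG
Syvn1 (-44 to -26): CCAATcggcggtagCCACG

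The ERSE-II matches were those of the ERAD gene Herpud1 and the co-chaperone gene Dnajb11, and they join CCACG to ATTGG, the reverse complement of CCAAT.
Herpud1 (-52 to -42): ATTGGgCCACG
Dnajb11 (7 to 17): ATTGGcCCACG

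The CARE matches were in 4 targets of ATF4 and in Herpud1, which therefore held both kinds of element.
Chac1 (-193 to -186): TGATGcAA
Trib3 (14 to 21): TGATGtAA
Slc7a11 (-66 to -59): TGATGcAA
Slc7a11 (-47 to -40): TGATGcAA
Asns (-23 to -16): TGATGaAA
Herpud1 (-112 to -105): TGATGcAA

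The 250 bases before the start site follow for the most abundant chaperone gene (Hspa5), for 3 of the 4 members that passed the test (Herpud1, Derl3 and Ddit3) and for Slc7a11, whose window held a CARE on each strand. They run along the strand of the gene, with matches to any of the searched motifs in capitals; the Ddit3 window held none of these letters.
Hspa5 (chr2:34771840-34772089, + strand): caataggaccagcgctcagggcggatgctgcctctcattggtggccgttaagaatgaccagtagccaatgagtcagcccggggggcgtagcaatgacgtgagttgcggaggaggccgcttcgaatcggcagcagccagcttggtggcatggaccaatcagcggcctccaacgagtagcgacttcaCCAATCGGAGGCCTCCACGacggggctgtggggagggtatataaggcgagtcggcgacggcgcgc
Herpud1 (chr8:94386179-94386428, + strand): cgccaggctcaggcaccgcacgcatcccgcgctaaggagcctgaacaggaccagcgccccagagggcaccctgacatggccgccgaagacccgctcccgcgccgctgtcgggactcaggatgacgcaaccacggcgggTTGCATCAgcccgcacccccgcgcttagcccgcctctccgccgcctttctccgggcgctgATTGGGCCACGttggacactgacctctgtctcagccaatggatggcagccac
Derl3 (chr10:75893148-75893397, + strand): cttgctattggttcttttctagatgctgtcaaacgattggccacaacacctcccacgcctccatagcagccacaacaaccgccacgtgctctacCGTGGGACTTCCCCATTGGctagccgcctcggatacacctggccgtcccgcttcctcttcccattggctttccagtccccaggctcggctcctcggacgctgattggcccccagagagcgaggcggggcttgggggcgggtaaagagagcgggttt
Ddit3 (chr10:127290543-127290792, + strand): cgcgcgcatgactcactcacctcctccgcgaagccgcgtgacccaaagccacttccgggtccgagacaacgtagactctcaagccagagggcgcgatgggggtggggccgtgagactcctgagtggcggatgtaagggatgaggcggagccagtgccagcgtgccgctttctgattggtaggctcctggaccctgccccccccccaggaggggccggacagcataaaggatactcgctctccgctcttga
Slc7a11 (chr3:50443614-50443863, - strand): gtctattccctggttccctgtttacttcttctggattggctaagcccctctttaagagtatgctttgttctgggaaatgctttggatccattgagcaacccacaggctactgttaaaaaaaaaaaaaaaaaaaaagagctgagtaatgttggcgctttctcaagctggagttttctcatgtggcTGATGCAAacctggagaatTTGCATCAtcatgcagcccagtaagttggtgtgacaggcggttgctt

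Of the 32 members, 3 were higher in the libraries labelled IL6 shRNA1 (Herpud1, Atf6 and Ddit3), 1 was lower (Derl3) and 28 were not called at an adjusted p under 0.05 in edgeR's quasi-likelihood test. Among all genes tested the called share was 11.8%, with 5.62% higher and 6.16% lower, so that 4 of 32 (12.5%) is near the background and is no result about the set. The members had a median log2 fold change of 0.10, against -0.01 over all genes tested. Fold changes were positive for 20 of the 32 members and for 7211 of the 15064 genes tested, the background for the counts of signs below. Without single libraries the count of called genes over the whole table moved by more than 1.5 times. It was 2838, 839, 1028, 1145 and 985 without libraries 1 to 5 labelled IL6 shRNA1, and 874 and 858 without control libraries 2 and 5.

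**Figure D1:**
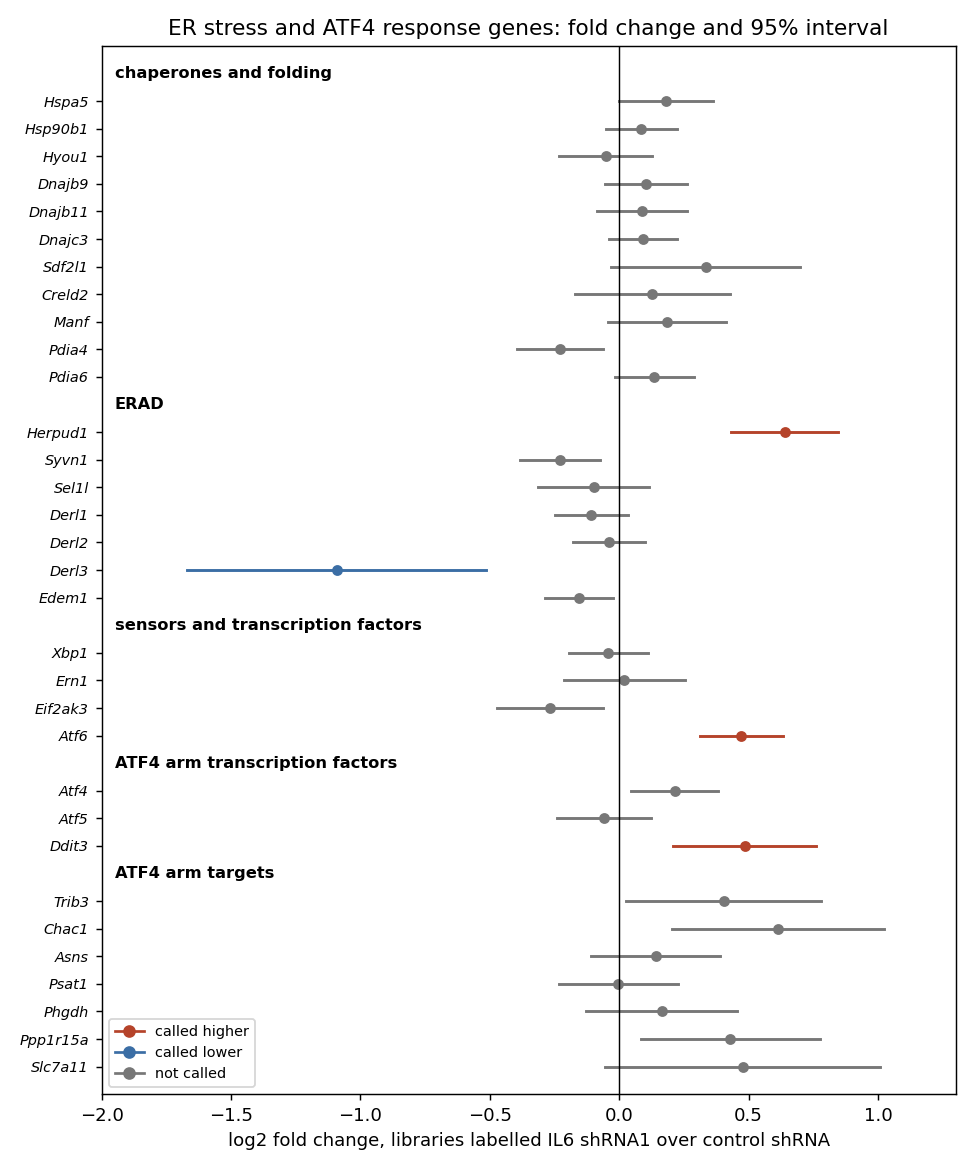
Log2 fold change of each of the 32 members, libraries labelled IL6 shRNA1 over control shRNA (horizontal axis), with the 95% interval from edgeR, grouped by role. The 4 called members are coloured; the intervals of the chaperone and folding genes lie between -0.39 and 0.70.

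None of the 11 chaperone and folding genes was called by edgeR. At an unadjusted p under 0.05 in that test, 1 was higher and 1 lower, beside 15.5% higher and 15.7% lower among all genes tested. Pdia4 was called by DESeq2, which called 3027 of the 15064 genes tested, against 1775 in edgeR. Of the 11 genes, 9 had a positive fold change, and the median log2 fold change of all 11 was 0.10. Hspa5 encodes BiP, the main Hsp70 chaperone of the ER, which also holds the sensors inactive. It stood at 1305, 1211, 1355, 1118 and 1318 CPM in libraries 1 to 5 labelled IL6 shRNA1, against 1101, 1171, 999.8, 1258 and 1030 CPM in control libraries 1 to 5. The groups overlapped, through library 4 of each. The log2 fold change was 0.18 ± 0.08 (SE; 95% interval 0.00059 to 0.36; adjusted p = 0.16), a level 13.4% higher by the estimate. Hsp90b1 encodes GRP94, the Hsp90 chaperone of the ER. It stood at 923, 894, 901, 892 and 895 CPM, against 821, 871, 775, 940 and 841 CPM in control. The libraries labelled IL6 shRNA1 had a coefficient of variation of 1.42% in that gene. Control library 4 lay above all of them and the other control libraries below (log2 fold change 0.09, 95% interval -0.05 to 0.22, adjusted p = 0.38).

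Among the co-chaperones, which hand clients to BiP, Dnajb9 was at 51.4 ± 4.31 against 47.9 ± 2.79 CPM in control (SD, n = 5 each), Dnajb11 at 141 ± 15.1 against 133 ± 7.62 CPM, and Dnajc3, which encodes the PERK inhibitor p58IPK, at 218 ± 10.97 against 205 ± 10.7 CPM. Sdf2l1, a partner of these J proteins, had the highest estimate of the group, at 60.6 ± 15.3 against 48.0 ± 6.93 CPM (log2 fold change 0.34, 95% interval -0.03 to 0.70; adjusted p = 0.19). Of the genes of secreted ER stress proteins, Creld2 was at 75.0 ± 17.2 against 68.6 ± 5.38 CPM and Manf at 202 ± 32.4 against 177 ± 11.6 CPM. Adjusted p-values of Dnajb9, Dnajb11, Dnajc3, Creld2, Manf and Hyou1 (the chaperone GRP170, 245 ± 11.6 against 254 ± 30.3 CPM) lay between 0.25 and 0.71. The estimates of the disulphide isomerase genes had opposite signs. Pdia6 was at 530 ± 46.5 against 482 ± 13.9 CPM (adjusted p = 0.20) and Pdia4 at 338 ± 16.6 against 396 ± 38.3 CPM (log2 fold change -0.23, 95% interval -0.39 to -0.06; adjusted p = 0.070), and Pdia4 was called by DESeq2 (adjusted p = 0.027). Manf overlaps Rbm15b on the same strand over 6511 bases in the deposited coordinates, and Dcaf1 on the other strand over 42681 bases. Rbm15b was itself lower (log2 fold change -0.38, adjusted p = 0.0088), and Dcaf1 was not called (-0.20, adjusted p = 0.14). How shared reads were counted is not given in the sources used here, and the effect of these overlaps on Manf was not tested.

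Of the 7 ERAD genes, whose products carry misfolded proteins out of the ER for degradation, 1 was higher, 1 was lower and 5 were not called, and 6 had a negative fold change. Herpud1 encodes a ubiquitin-like ER membrane protein that organises the retrotranslocation complex (ENSMUSG00000031770.16, chromosome 8, 94386438 to 94395377). It was measured at 93.3, 109, 122, 90.3 and 119 CPM in libraries 1 to 5 labelled IL6 shRNA1, against 74.0, 68.2, 67.3, 70.8 and 62.0 CPM in control libraries 1 to 5. Each library labelled IL6 shRNA1 lay above each control library. Non-overlapping groups were seen for 4 of the 32 members and for 10.9% of all genes tested. Herpud1 rose 1.56-fold (95% interval 1.35 to 1.80; log2 fold change 0.64 with an SE of 0.09, adjusted p = 0.0034) and stayed called in each omission of a single library. Derl3, a derlin of the channel through which proteins leave the ER that is known from secretory cells, changed the other way (ENSMUSG00000009092.5, chromosome 10, 75893413 to 75895941). It was at 4.22, 1.88, 3.82, 3.36 and 2.38 CPM under IL6 shRNA1, against 5.98, 8.86, 5.97, 4.24 and 8.36 CPM in control, and the highest of the first lay just under the lowest of the second, at 4.22 and 4.24 CPM. The fold change was 0.469 (95% interval 0.314 to 0.701; log2 fold change -1.09 ± 0.26 SE, adjusted p = 0.025), from 38 to 182 counts a library. That call was lost without libraries 2 and 5 labelled IL6 shRNA1 (adjusted p = 0.056 and 0.059) and without control libraries 2 and 5 (0.062 and 0.063). Of the 6 plasma cell markers, cells in which Derl3 is known to be abundant, 3 were tested and 0 called, with sums of 16.8 to 45.4 CPM against 7.40 to 33.1 CPM in control. Mzb1, Tnfrsf17 and Cd79a were under 10 counts in every library.

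The paralogs of Derl3 were not called. Derl1 was at 143 ± 11.9 against 154 ± 2.34 CPM (adjusted p = 0.27) and Derl2 at 46.1 ± 2.63 against 47.4 ± 2.60 CPM (adjusted p = 0.72). Syvn1, which encodes the ubiquitin ligase HRD1 at the core of the ERAD complex, was at 132 ± 7.36 against 155 ± 12.6 CPM, and its groups did not overlap. Its log2 fold change of -0.23 ± 0.07 (SE) missed the threshold (adjusted p = 0.057). Syvn1 was called without library 1 labelled IL6 shRNA1 (adjusted p = 0.045) or control library 3 (0.046), and by DESeq2 (0.036). It overlaps Mrpl49 on the other strand over 91 bases, and Mrpl49 was itself lower (log2 fold change -0.36, adjusted p = 0.028 by edgeR). The effect of that overlap on Syvn1 was not tested. Sel1l, which encodes the adaptor of HRD1, was at 203.5 ± 28.5 against 218 ± 16.7 CPM (adjusted p = 0.53). Edem1, which encodes a lectin that recognises misfolded glycoproteins, was at 212 ± 8.90 against 237 ± 13.6 CPM (adjusted p = 0.11).

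**Figure D2:**
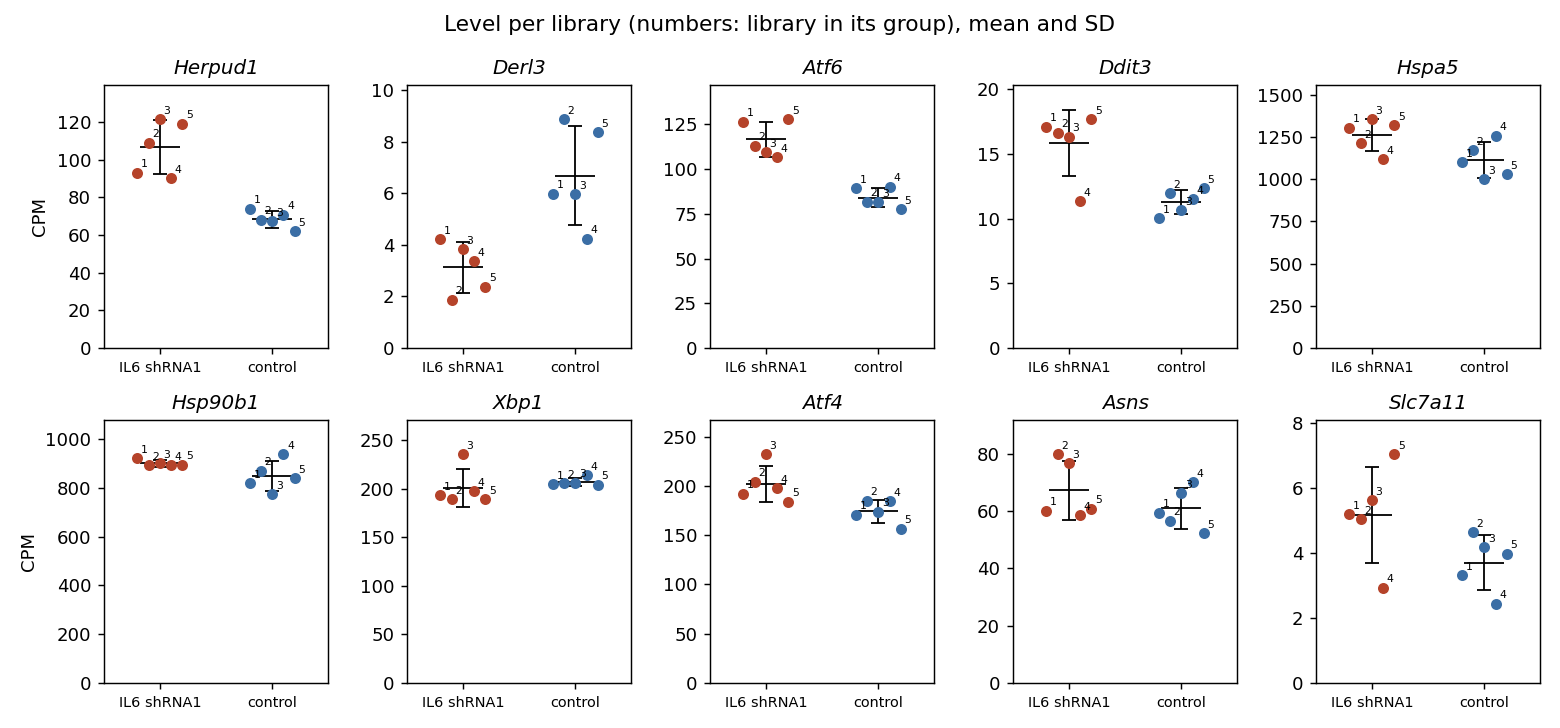
Level of 10 members in each library (vertical axis, CPM from 0), libraries labelled IL6 shRNA1 on the left and control on the right of each panel, with the number of the library beside each point and the mean and SD of 5 libraries as bars. Herpud1, Atf6 and Derl3 separate the groups, and Ddit3 overlaps through library 4 labelled IL6 shRNA1 at 11.3 CPM.

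Of the 4 sensor genes and their transcription factors, 1 was higher and 3 were not called. Atf6 encodes the membrane-bound factor that is cut in the Golgi (ENSMUSG00000026663.6, chromosome 1, 170704674 to 170867771). It was measured at 126, 113, 109, 106 and 128 CPM in libraries 1 to 5 labelled IL6 shRNA1, against 89.1, 81.8, 81.4, 90.1 and 77.6 CPM in control libraries 1 to 5. The groups did not overlap. Atf6 rose 1.39-fold (95% interval 1.24 to 1.55; log2 fold change 0.47 ± 0.07 SE, adjusted p = 0.0042), and the call was kept in each omission of a single library. Xbp1 encodes the factor whose mRNA IRE1 splices. Its total mRNA stood at 193, 189, 236, 197 and 189 CPM, against 204, 206, 206, 214 and 204 CPM in control, with library 3 labelled IL6 shRNA1 above all others and the other 4 below every control library. The fold change of Xbp1 was 0.971 (95% interval 0.874 to 1.08; adjusted p = 0.72). Ern1, the gene of IRE1, was at 66.8 ± 6.86 against 65.8 ± 9.90 CPM (adjusted p = 0.92). Eif2ak3, the gene of PERK, was at 73.3 ± 9.41 against 88.1 ± 7.47 CPM (log2 fold change -0.27 with an SE of 0.09, adjusted p = 0.083). It was called without library 1 labelled IL6 shRNA1 (adjusted p = 0.014) and with no scaling factors (0.043). On filtered FPKM it was called with pseudocounts of 1 and 0.1 (0.040 each).

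Of the 10 genes of the ATF4 arm, 1 was higher and 9 were not called, 8 had a positive fold change, and their median log2 fold change was 0.31. At an unadjusted p under 0.05, 5 of the 10 were higher and 0 lower, beside 15.5% higher and 15.7% lower among all genes tested. Atf4 encodes the transcription factor that gives the arm its name and whose translation goes up when eIF2alpha is phosphorylated. It was at 192, 204, 232, 198 and 184 CPM in libraries 1 to 5 labelled IL6 shRNA1, against 171, 185, 174, 184 and 157 CPM in control libraries 1 to 5. The overlap came from library 5 labelled IL6 shRNA1, which lay just under the highest control library (log2 fold change 0.21 with an SE of 0.08, adjusted p = 0.087, and 0.024 by DESeq2). Atf5, a related factor, was at 78.3 ± 7.60 against 81.6 ± 6.77 CPM (adjusted p = 0.67). Ddit3 encodes CHOP, the factor tied to cell death under lasting ER stress (ENSMUSG00000025408.15, chromosome 10, 127290774 to 127296288). It was at 17.1, 16.6, 16.3, 11.3 and 17.7 CPM under IL6 shRNA1, against 10.1, 11.98, 10.7, 11.5 and 12.3 CPM in control. Library 4 labelled IL6 shRNA1 lay among the control libraries and the other 4 above them. Ddit3 rose 1.40-fold (95% interval 1.16 to 1.69; log2 fold change 0.49 ± 0.13 SE, adjusted p = 0.032). The call was lost without libraries 2, 3 and 5 labelled IL6 shRNA1 (adjusted p = 0.076, 0.064 and 0.073) and without each control library in turn (0.052 to 0.064). The end of Ddit3 overlaps Mars1 on the other strand over 68 bases, and Mars1 was at 90.9 against 90.4 CPM. The nested second Ddit3 entry overlaps the entry used on the same strand over 2925 bases and was at 0 CPM in both groups. If reads shared by both entries were left out, the CPM and FPKM of Ddit3 rest on its unshared part only. The effect of that overlap on the Ddit3 values was not tested.

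None of the 7 targets of ATF4 was called by edgeR. At an unadjusted p under 0.05 in that test, 3 were higher and 0 lower, beside 15.5% higher and 15.7% lower among all genes tested. DESeq2, which called 3027 of the 15064 genes tested, called Chac1 and Ppp1r15a. Chac1, which encodes an enzyme that breaks down glutathione, was at 15.03 ± 4.70 against 9.82 ± 1.06 CPM in control. Its log2 fold change was 0.61 ± 0.19 (SE; 95% interval 0.20 to 1.02; adjusted p = 0.055), and it was called without libraries 1 or 4 labelled IL6 shRNA1 (adjusted p = 0.038 and 0.036), by DESeq2 (0.018) and with no filter on low counts (0.047). Ppp1r15a encodes GADD34, which directs the dephosphorylation of eIF2alpha. It was at 31.3 ± 6.10 against 23.3 ± 4.06 CPM (adjusted p = 0.095) and was called without library 4 labelled IL6 shRNA1 (0.038). Trib3, a pseudokinase gene that restrains ATF4 and CHOP, was at 16.8 ± 3.34 against 12.7 ± 2.66 CPM (adjusted p = 0.14). Slc7a11 encodes the cystine transporter xCT. It was at 5.18, 5.04, 5.62, 2.92 and 7.04 CPM under IL6 shRNA1, against 3.31, 4.63, 4.17, 2.43 and 3.97 CPM in control (log2 fold change 0.48, 95% interval -0.05 to 1.01; adjusted p = 0.20). Library 4 of each group was the lowest of that group.

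The amino acid synthesis genes of the arm had smaller estimates. Asns, the gene of asparagine synthetase, was at 60.02, 79.8, 76.7, 58.6 and 60.8 CPM, against 59.4, 56.6, 66.2, 70.1 and 52.1 CPM in control, and the groups overlapped widely (log2 fold change 0.14, 95% interval -0.11 to 0.39; adjusted p = 0.43). For the serine synthesis genes, Phgdh was at 69.1 ± 11.01 against 61.6 ± 9.68 CPM (adjusted p = 0.43) and Psat1 at 78.5 ± 10.2 against 78.7 ± 9.07 CPM (95% interval of the fold change 0.85 to 1.17; adjusted p = 0.99).

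Other genes of the pathway, from lists with no member in them, were called at about the background share of 11.8%. Of 34 tested among 35 other ER folding and ERAD genes, 2 were higher, 2 lower and 30 not called, with a median log2 fold change of 0.0064. The higher ones were Uggt1, the glycoprotein folding sensor (245 ± 28.8 against 177 ± 15.1 CPM in control, adjusted p = 0.010), and Ero1lb, an ER oxidase (19.2 ± 1.45 against 14.7 ± 1.53 CPM, adjusted p = 0.025). The lower ones were Sec61a1, the translocation channel (549 ± 26.3 against 695 ± 50.2 CPM, adjusted p = 0.012), and Creb3l2, a factor cut like ATF6 (199.9 ± 32.7 against 297 ± 30.8 CPM, adjusted p = 0.013). Of 41 tested among 42 other ATF4 target genes, 3 were higher, 2 lower and 36 not called, with a median of 0.0070. Nupr1, a stress-induced chromatin protein gene, rose to 28.9 ± 2.92 CPM, against 16.4 ± 2.43 CPM in control (adjusted p = 0.0027). Got1, an aspartate transaminase gene (111 ± 13.8 against 87.2 ± 6.14 CPM, adjusted p = 0.031), and Psph, of serine synthesis (22.5 ± 3.24 against 16.8 ± 1.41 CPM, adjusted p = 0.034), were higher. Cth, the cystathionine gamma-lyase gene, was lower (4.77 ± 1.70 against 9.14 ± 1.54 CPM, adjusted p = 0.034). Pycr1, of proline synthesis, was also lower (38.0 ± 4.16 against 49.7 ± 6.32 CPM, adjusted p = 0.035) and is named because it completes the count. Omission of single libraries raised adjusted p-values of Ero1lb to at most 0.064, of Got1 to 0.079, of Psph to 0.084 and of Cth to 0.073, while Uggt1, Sec61a1, Creb3l2 and Nupr1 stayed called in all 10 omissions. Without the 3 libraries farthest out on the first principal component, Uggt1 (adjusted p = 0.098), Sec61a1 (0.14) and Creb3l2 (0.13) lost the call. With the leukocyte covariate all of these lost it, at adjusted p = 0.13 for Uggt1, 0.62 for Sec61a1, 0.53 for Creb3l2 and 0.17 for Nupr1.

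The genes with a motif were described in the same way. All 5 members with a CARE had positive fold changes (log2 0.14 to 0.64, median 0.48), and 1 was called (Herpud1). The 304 other tested genes with a CARE in the window had a median of 0.03, with 34 higher and 20 lower, 17.8% called against 12.5% of the 11111 tested genes with a window. The 9 members with ERSE or ERSE-II had a median of 0.09, with 1 higher (again Herpud1) and 1 lower (Derl3). The 13 other tested genes with an ERSE had a median of -0.03, with 0 called. The 7 other tested genes with an ERSE-II had a median of -0.08, with 0 called. The 113 tested genes with a UPRE had a median of -0.0081, with 3 higher and 8 lower (9.73% called).

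Several of these genes lie on the chromosomes whose genes as a whole were shifted between the groups. On chromosome 1 the median log2 fold change of 917 tested genes was 0.32, with 268 higher and 1 lower (29.3% called). Atf6 at 0.47 is the member there, 0.15 above that median, and Uggt1 lies there too. On chromosome 6 the median of 797 tested genes was -0.23, with 21 higher and 216 lower (29.7% called). The members there were Pdia4 at -0.23, Edem1 at -0.16, Eif2ak3 at -0.27 and Asns at 0.14, and Sec61a1 and Creb3l2 lie there too. These 3 negative members are among the 5 of 32 that were lower at an unadjusted p under 0.05, beside 15.7% of all genes tested. The others were Syvn1 on chromosome 19, whose median was -0.12, and Derl3. The medians of the remaining chromosomes with at least 100 tested genes lay between -0.06 and 0.02. Herpud1 on chromosome 8 lay 0.62 above the median of its chromosome. On chromosome 10 Ddit3 lay 0.53 above the median and Derl3 at -1.05 from it. The part of these shifts in the values of single members was not tested.

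**Figure D3:**
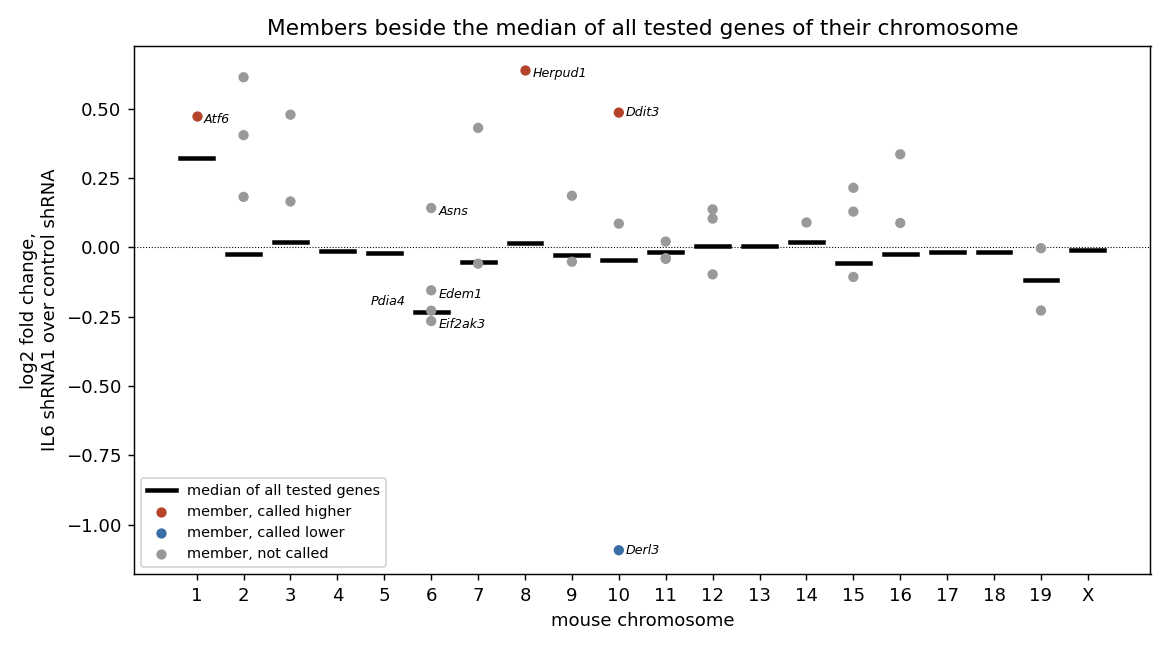
Log2 fold change of each member (points, libraries labelled IL6 shRNA1 over control shRNA) by mouse chromosome, with the median of all tested genes of that chromosome as a bar. Atf6 sits near the raised bar of chromosome 1 (0.32), and Pdia4, Edem1 and Eif2ak3 sit near the lowered bar of chromosome 6 (-0.23).

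The 4 called members were also fitted without library 5 labelled IL6 shRNA1 and control libraries 2 and 5, which lie farthest out on the first principal component. The log2 fold changes were then 0.56 for Herpud1 (adjusted p = 0.058), 0.39 for Atf6 (0.065), 0.52 for Ddit3 (0.15) and -0.70 for Derl3 (0.26), and 0 members and 218 genes in all were called. The first component held 55.8% of the variance and itself differed between the groups. It ran from -17.4 to 57.3 in the libraries labelled IL6 shRNA1 and from -54.8 to 0.94 in control. This omission therefore also takes out part of the group difference, and it leaves fewer libraries. With the mean of the leukocyte markers in each library as a covariate, 31 genes in all and 0 members were called. The log2 fold changes were 0.47 for Herpud1 (adjusted p = 0.27), 0.43 for Atf6 (0.22), 0.64 for Ddit3 (0.30) and -0.52 for Derl3 (0.68). That mean differed between the groups itself, from 0.0091 to 0.91 in the libraries labelled IL6 shRNA1 and from -1.36 to 0.099 in control (log2 units), so it shares variance with the group. The part of leukocyte and muscle content in the results of the members was not tested.

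Per length the members spanned a wide range of levels. Hspa5 was the most abundant at 298 ± 18.7 FPKM in the libraries labelled IL6 shRNA1 and 262 ± 27.8 FPKM in control (SD, n = 5 each), followed by Hsp90b1 (224 ± 7.30 and 210.0 ± 16.1 FPKM), Pdia4 (141 ± 11.1 and 164 ± 6.45 FPKM) and Pdia6 (142 ± 17.7 and 128 ± 8.73 FPKM). Atf4 came next at 85.8 ± 10.1 and 73.7 ± 7.19 FPKM, then Xbp1 at 61.9 ± 7.45 and 63.5 ± 4.20 FPKM. The sensor genes were low: Eif2ak3 at 12.1 ± 1.14 and 14.5 ± 0.482 FPKM, Atf6 at 12.6 ± 0.576 and 9.10 ± 0.977 FPKM, Ern1 at 8.17 ± 0.838 and 8.07 ± 1.51 FPKM. Ddit3 was at 9.21 ± 1.28 and 6.56 ± 0.268 FPKM. The lowest were Derl3 at 1.57 ± 0.483 and 3.31 ± 0.796 FPKM and Slc7a11 at 0.369 ± 0.0986 and 0.264 ± 0.058 FPKM. Of the 31 pairs of neighbours in this order, 27 had ranges over the 10 libraries that overlapped. The 4 gaps lay between Hsp90b1 and Pdia4, between Pdia6 and Atf4, between Derl2 and Derl3, and between Derl3 and Slc7a11.

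**Figure D4:**
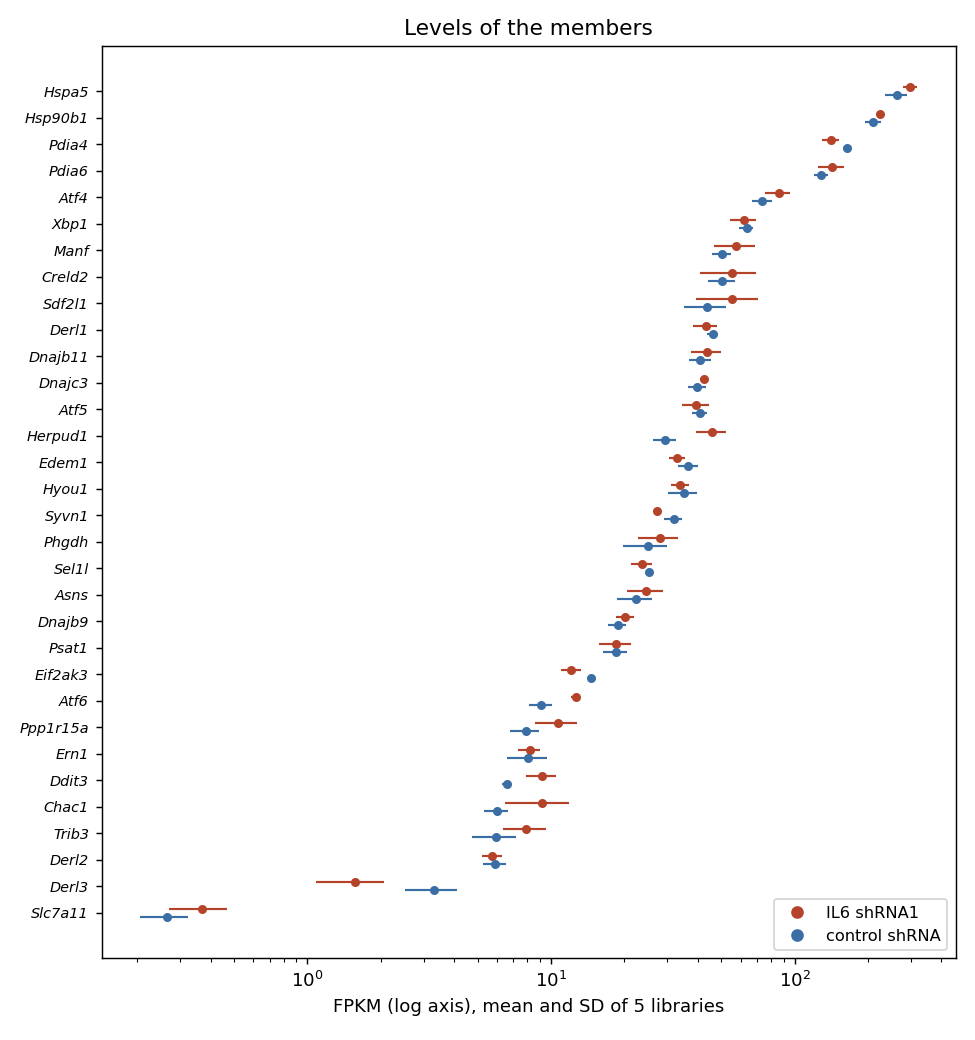
Levels of the 32 members in FPKM (log axis), mean and SD of 5 libraries labelled IL6 shRNA1 and of 5 control libraries, in order of the mean over all 10. Hspa5 leads at 298 and 262 FPKM and Slc7a11 closes at 0.369 and 0.264 FPKM.

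Single libraries held many of the extreme values of the members within the groups. The share of all genes tested with an extreme in the same libraries was not counted. Library 3 labelled IL6 shRNA1 was the highest of all 10 for 7 of the 11 chaperone and folding genes (Hspa5, Dnajb9, Dnajb11, Sdf2l1, Creld2, Manf and Pdia6) and for Herpud1, Derl1, Xbp1, Atf4 and Psat1. Sdf2l1 stood at 82.7 CPM in it, against 45.0 to 69.3 CPM in the other libraries of that label, and Creld2 at 101.4 CPM against 57.5 to 82.2 CPM. Among the control libraries, library 4 was the highest for 7 of the 11 chaperone and folding genes, and libraries 3 and 5 were the lowest for 6 and 5 of them. In the ATF4 arm library 4 labelled IL6 shRNA1 was the lowest of its group for 6 of the 10 genes, and control library 4 was the lowest of all 10 for Trib3, Chac1, Psat1, Ppp1r15a and Slc7a11. Control library 4 was also the highest of all 10 for Atf5 (90.5 CPM) and the highest control for Asns (70.1 CPM), and its sum over the arm was 529 CPM, within the control range of 484 to 544 CPM. Library 5 labelled IL6 shRNA1, which had the highest muscle sum at 8072 CPM and the highest leukocyte sum at 5505 CPM, was the highest of all 10 for Ddit3, Chac1 and Slc7a11 and for Atf6. Chac1 stood at 22.9 CPM in it, against 10.6 to 14.8 CPM in the other 4 of that label. Without this library the adjusted p of Chac1 was 0.085.

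**Figure D5:**
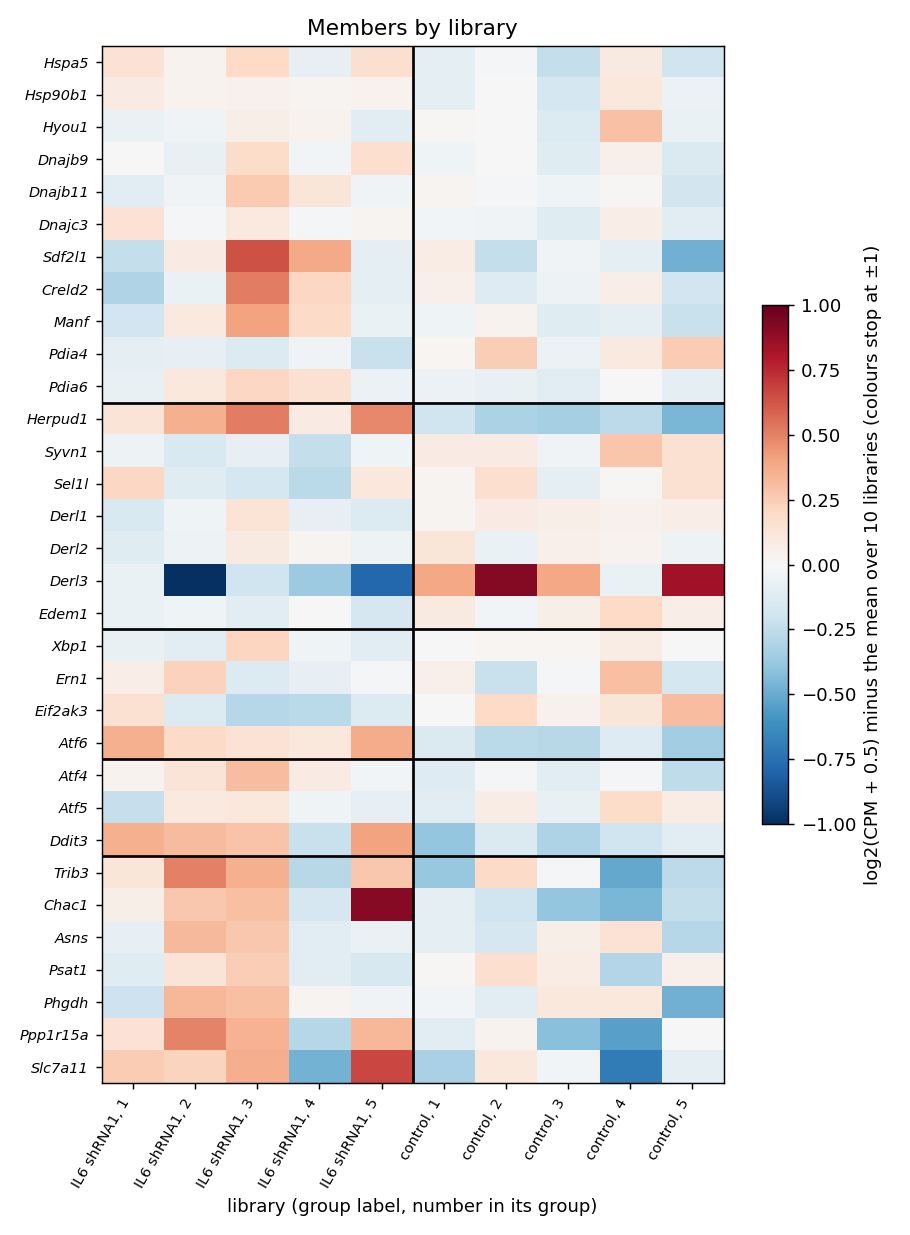
Level of each member (rows) in each library (columns, those labelled IL6 shRNA1 on the left) as log2(CPM + 0.5) minus the mean of the gene over the 10 libraries. Herpud1 and Atf6 divide the groups, the chaperones Sdf2l1, Creld2 and Manf peak in library 3 labelled IL6 shRNA1, and the ATF4 targets Trib3, Chac1, Ppp1r15a and Slc7a11 are lowest of their group in library 4 of both groups.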

How the data were processed

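Total RNA of 10 samples was taken with RNeasy columns and made into libraries with the NEBNext Ultra II RNA kit, per the labels' protocols. The submitters' processing notes list STAR 2.7.0f, featureCounts, Subread 1.6.4, SAMtools 1.11, R 4.0.4, Trim Galore 0.6.6 and FastQC 0.11.9, and as builds GRCm38 (mm10). How strand and shared reads were counted, and from which annotation release, is not given in the sources used. The authors deposited raw whole-number counts per gene and, in a second table, FPKM values of the same genes. Deposited FPKM values were the counts over 1 length per gene and over the library total, to within 1.57e-06 of each value.

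Counts were tested in R 4.3.3 with edgeR 4.0.16 over all 10 libraries: filterByExpr by group (minimum count 10), TMM factors, and a quasi-likelihood model with robust dispersion and the group as the only term. P-values were adjusted by the Benjamini-Hochberg method over all 15064 genes tested, with calls at an adjusted p under 0.05. CPM values use the TMM-scaled totals. The procedure was tested on simulated counts drawn independently for each gene and library. That test does not cover variation that the genes of a library share. Means are given with the SD over 5 libraries. The members, lists and rule for named genes (all members, then up to 4 called genes per pathway list by smallest p) were chosen with earlier results of these data known. The alternatives were other scaling factors and filters, DESeq2 1.42.0, limma 3.58.1 with voom, a fit without robust dispersion, the library number as a block, limma on log2 FPKM with pseudocounts of 1 and 0.1, each library left out in turn, the 3 libraries farthest out on the first principal component left out, and a leukocyte covariate. Same-numbered libraries of the 2 groups did not deviate together (correlations -0.30 to 0.28). Tables and figures were made with Python 3.11.15, pandas 2.3.3, numpy 2.4.6 and matplotlib 3.10.9.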

Additional observations from a re-analysis of the deposited data

Results flagged for a closer look

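In 4 of the 82 groups of 5 libraries that were examined (the 32 members, the other pathway genes named by the rule and Il6), 1 library lay far from the others by Dixon's criterion. A rate of 1 in 20 would give 4.1 such groups. Library 3 labelled IL6 shRNA1 had 236 CPM of Xbp1, where the other 4 of that label had 189 to 197 CPM. Control library 4 had 214 CPM of Xbp1, where the other control libraries had 204 to 206 CPM. Library 1 labelled IL6 shRNA1 had 923 CPM of Hsp90b1, where the others had 892 to 901 CPM. Library 4 labelled IL6 shRNA1 had 11.3 CPM of Ddit3, where the others had 16.3 to 17.7 CPM.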

How the results depend on the processing

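The count of all genes called (1775) was 3027 with DESeq2, 755 with the replicate block, 769 with unfiltered FPKM, 218 without the 3 far libraries and 31 with the leukocyte covariate, and 839 to 2838 over the omissions of single libraries. Of the chaperone, folding and ERAD members 2 were called, and 4 with DESeq2, 1 with the block, 1 with unfiltered FPKM, 0 without the far libraries, 0 with the covariate, and 1 to 3 over the omissions. Of the sensor and transcription factor members 1 was called, and 2 with no scaling factors, 2 with FPKM at a pseudocount of 1 and 2 at 0.1, 0 without the far libraries, 0 with the covariate, and 1 to 2 over the omissions. Of the ATF4 arm 1 was called, and 2 with no filter, 4 with DESeq2, 0 with the block, 0 without the far libraries, 0 with the covariate, and 0 to 3 over the omissions. Of the other ER folding and ERAD genes 4 were called, and 2 with the block, 0 without the far libraries, 0 with the covariate, and 3 to 4 over the omissions. Of the other ATF4 targets 5 were called, and 8 with DESeq2, 1 with the block, 1 with unfiltered FPKM, 1 without the far libraries, 0 with the covariate, and 1 to 7 over the omissions. The cause of these moves was not tested.

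Libraries share numbers in their titles, and whether the numbers pair them is not stated. Correlations of same-numbered libraries ran from -0.30 to 0.28, and 1 of 5 correlated best with its own number. These 5 correlations show no pairing but are too few to exclude one. Under the replicate block Derl3 (adjusted p = 0.092), Ddit3 (0.080) and Sec61a1 (0.051) lost the call and Herpud1 and Atf6 kept it. Of the other pathway genes named, Ero1lb (0.071), Got1 (0.075), Psph (0.051), Cth (0.078) and Pycr1 lost it too. Directions turned for 7 genes, none of them called. The log2 fold change of Psat1 (-0.0034) was 0.012 with RLE factors, 0.0011 with upper quartile factors, 0.0058 with no factors, 0.018 with no filter, 0.013 with the 1 CPM filter, 0.012 with DESeq2, 0.00062 with FPKM at a pseudocount of 1 with and without the filter, 0.00045 at 0.1, 0.11 without the far libraries and 0.053 with the covariate. Over its omissions it ran from -0.071 to 0.040. With the covariate Creld2 was at -0.082, Sel1l at 0.084, Phgdh at -0.062, Ern1 at -0.10 and Il6 at -0.80 (adjusted p = 0.50), and without the far libraries Ern1 was at -0.087. Over the omissions Hyou1 ran from -0.090 to 0.023 and Ern1 from -0.038 to 0.11. Under other scaling factors the median of all genes lay between -0.0095 and 0.0020, against -0.01. Derl3 and Slc7a11 rest on 38 to 182 and 47 to 133 counts a library. The SEs of their log2 fold changes were 0.26 and 0.24, against at most 0.17 (Sdf2l1) among the chaperone and folding genes. The cause of that difference was not tested.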
